A study of Rattus norvegicus with 18 samples.

Results

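ERvSH sets 6 rats removed from enrichment (ER) against 6 rats kept in standard single housing (SH). All genes whose mean over the 18 libraries of the study lay above 1 were compared, 18172 of 19113 genes in the table. The comparison is between 12 of the 18 libraries, while the main model took its estimate of the spread from all 18. The rats were adult male Sprague-Dawley rats, 8 weeks old at arrival and naive to behavioural testing. ER rats spent their active phase for 4 weeks in a large multi-level cage with toys and company, 10 rats to a cage, were then housed alone around the clock, and were killed 2 weeks after removal. Rats kept in enrichment throughout (EE, 6 rats) are given for context, and SH rats lived alone in plain cages for the whole time. ER and SH rats were thus both housed alone when tissue was taken, and ER rats differed from SH rats in past company as well as past objects, which cannot be told apart here. Polyadenylated RNA from micropunches of the basolateral amygdala (BLA) was sequenced with 1 library per rat and no pooling. The tests take the rat as the unit and do not cover a spread between the shared cages.

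The BLA is a cortex-like nucleus that links sensory events to threat and reward. Most of its neurons are glutamatergic projection neurons, held in check by local interneurons and by clusters of GABAergic intercalated cells along its borders, and it lies beside the central amygdala, whose neurons resemble those of the striatum. Astrocytes take up glutamate and buffer water and potassium, microglia survey and prune synapses, and the extracellular matrix forms perineuronal nets around parvalbumin interneurons. A bulk punch mixes all of these cells, so a lower value of a marker may come from fewer cells of a type or from less RNA per cell, and these cannot be told apart.

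The values are reads per gene divided by 1 size factor for each library. They compare 1 gene between rats and are not corrected for gene length. The reads recovered from them numbered 20171558 to 23450276 per library in ER (median 21457172) and 18688872 to 22177364 in SH (median 20532708). The libraries SH 1 and SH 3 stood apart from the other 16. On the first principal component, which held 20.4% of the variance, they lay at -45.1 and -137 while the other libraries lay between -0.22 and 21.7, and their mean log2 level of 74 ribosomal protein genes was 10.19 and 10.28, against 9.45 to 9.63 in ER and 9.35 to 9.64 in the other 4 SH libraries. Fold changes and counts are therefore given with all 6 SH rats and again without SH 1 and SH 3, here called the pair. The punches held the BLA's own marker Rspo2 at 1441 to 2646 in ER and 1349 to 1925 in SH, and Slc17a7, the vesicular glutamate transporter of its projection neurons, at 44367 to 50004 in ER and 36064 to 47592 in SH. Drd2, a striatal dopamine receptor, reached 231 in ER and 244 in SH, and whether this came from neighbouring tissue was not tested. Ttr of choroid plexus stayed at or below 22.5 in ER and 4.34 in SH.

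No gene passed the main test. Limma called 0 of 18172 genes at an adjusted p under 0.05 (0% of genes, smallest adjusted p 0.567), and again 0 (0%) without SH 1 and SH 3 (smallest adjusted p 0.472). At an unadjusted p under 0.05, limma found 830 genes higher in ER (4.57% of genes tested) and 604 lower (3.32%). Without SH 1 and SH 3 the balance turned, with 484 genes higher (2.66%) and 689 lower (3.79%). The share of such genes that were higher in ER was 57.9% with all rats and 41.3% without the pair. Count models on recovered reads gave a similar split with all 6 SH rats, with 538 higher and 866 lower by edgeR, 581 and 935 by DESeq2, and 547 and 839 by limma-voom with quality weights, so which direction holds more genes depends on the model as well as on those 2 libraries. At an unadjusted p under 0.05 in both limma fits stood 172 genes higher in ER (0.947%) and 209 lower (1.15%), and of the 1434 genes below that p with all rats, 0 turned sign without the pair. The median size of the log2 fold change over all genes was 0.157 with all rats and 0.112 without the pair. EdgeR and limma-voom also called 0 genes at an adjusted p under 0.05, while DESeq2 called 2 of 18159 (0.011%), both lower in ER. The following accounts therefore give values and counts, and with all rats no gene but those 2 is said to have passed a test. Calls that DESeq2 made only with libraries left out are given as such.

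The genes that DESeq2 called were Aurkc and Ctxn3. Aurkc encodes Aurora kinase C, a kinase of chromosome segregation best known from germ cells. Its values were 313, 350, 337, 272, 325 and 349 in ER rats 1 to 6, against 369, 436, 526, 476, 483 and 391 in SH rats 1 to 6. Every ER rat was below every SH rat. The log2 fold change by limma was -0.46 ± 0.10 (standard error, adjusted p = 0.567) and -0.46 ± 0.09 without SH 1 and SH 3 (adjusted p = 0.472). By DESeq2 it fell by 0.47 on the log2 scale (adjusted p = 0.0462), with adjusted p = 0.0155 without the pair. ER rats averaged 324 ± 29.1, EE rats 315 ± 23.1 and SH rats 447 ± 59.5 (SD, n = 6 each). All 3 Aurora kinases measured were lower in ER, 2 of them at an unadjusted p under 0.05 (3.32% of all genes), and 1 without the pair (3.79%). Aurkc, already chosen for its DESeq2 call, is 1 of those 2 and is the 1 without the pair. Aurkc also kept its DESeq2 call when SH 2 and SH 6 were left out (adjusted p = 0.0308), and lost it without EE 3 (adjusted p = 0.087).

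Ctxn3 encodes cortexin 3, a small membrane protein of brain and kidney. Its values were 13.7, 37.1, 30.2, 14.3, 10.3 and 13.3 in ER rats 1 to 6, against 58.3, 238, 31.2, 53.2, 53.0 and 98.0 in SH rats 1 to 6. ER and SH overlapped only through SH 3, which lay below ER 2, and SH 2 stood far above all other rats. The log2 fold change by limma was -1.93 ± 0.45 (adjusted p = 0.567) and -2.28 ± 0.47 without SH 1 and SH 3 (adjusted p = 0.472). DESeq2 gave -2.17 (adjusted p = 0.0462) with all rats and -2.49 (adjusted p = 0.00209) without the pair. ER rats averaged 19.8 ± 11, EE rats 52.4 ± 29.0 and SH rats 88.6 ± 76.2 (SD, n = 6 each). SH 2 and SH 6, the rats highest in Ctxn3, were also the highest in markers of intercalated cells, as described below. Without them the log2 fold change of Ctxn3 was -1.38 ± 0.43 by limma, and its DESeq2 call was lost (adjusted p = 0.221), as it was without EE 3 (adjusted p = 0.087). Whether those cells carry the difference was not tested.

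Col4a5 was called by DESeq2 when SH 1 and SH 3 were left out and not with all rats, and was chosen after its values were seen. It encodes a chain of type IV collagen, the network of basement membranes. Its values were 249, 254, 220, 244, 229 and 240 in ER rats 1 to 6, against 132, 349, 143, 316, 365 and 316 in SH rats 1 to 6. The 4 other SH rats were all above every ER rat, and SH 1 and SH 3 were below every ER rat. The log2 fold change by limma was -0.06 ± 0.21 with all rats and -0.49 ± 0.10 without the pair (DESeq2 adjusted p = 0.00841 without the pair, 0.79 with all rats).

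**Figure D1:**
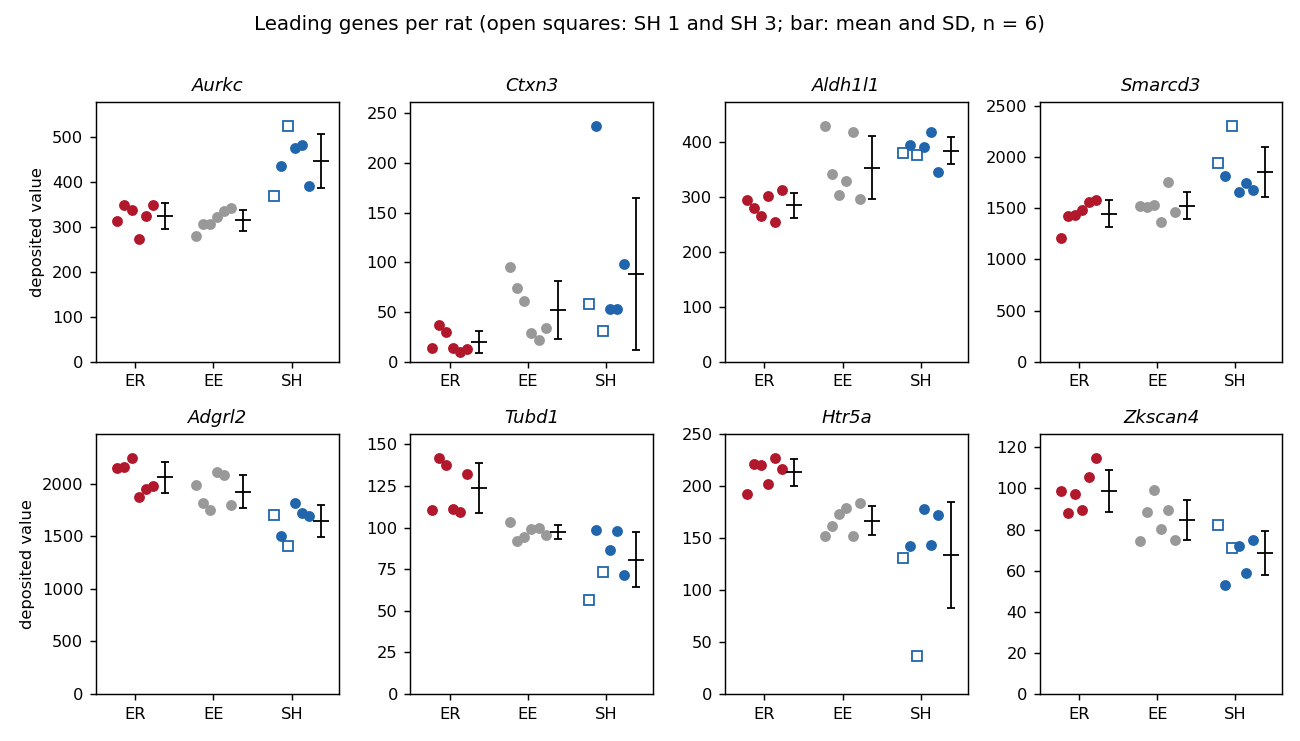
Deposited values (reads over a size factor) of 8 genes in each rat, with ER, EE and SH on the horizontal axes and vertical axes that start at 0. Filled circles are rats, open squares are SH 1 and SH 3, and the bar is the mean with SD of 6 rats. In every panel but that of Ctxn3, where SH 3 lies below ER 2, no ER rat overlaps any SH rat.

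The 6 ER and 6 SH values did not overlap at all for 21 genes higher in ER (0.116% of genes tested) and 32 lower (0.176%). Without SH 1 and SH 3, with fewer rats to separate, these were 114 higher (0.627%) and 156 lower (0.858%). Direction is by construction the same with and without the pair for the genes separated with all rats.

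Among the genes higher in every ER rat, and past a mean level of 10, the smallest p belonged to Adgrl2, latrophilin 2, an adhesion receptor that binds partners across the synapse. It measured 2148, 2158, 2247, 1875, 1949.5 and 1982 in ER rats 1 to 6, against 1705, 1505, 1411, 1815, 1724 and 1696 in SH rats 1 to 6. The lowest ER rat was thus 1875 and the highest SH rat 1815. Its log2 fold change was 0.33 ± 0.07 by limma (adjusted p = 0.567) and 0.29 ± 0.07 without the pair (adjusted p = 0.649). All 3 latrophilins measured were higher in ER in both fits, with 2 of 3 at an unadjusted p under 0.05 with all rats (4.57% of all genes) and 1 of 3 without the pair (2.66%). Adgrl2, already chosen for its separation, is 1 of those 2 and is the 1 without the pair. EE rats averaged 1923 ± 158 for Adgrl2 (SD, n = 6).

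Tubd1 encodes delta tubulin of the centriole. It measured 110, 142, 137, 111, 110 and 132 in ER rats 1 to 6, against 56.2, 98.7, 73.1, 86.3, 97.8 and 71.7 in SH rats 1 to 6. The log2 fold change was 0.63 ± 0.15 with all rats and 0.48 ± 0.14 without the pair. EE lay between, at 97.4 ± 4.13. Zkscan4, a zinc finger protein with KRAB and SCAN domains, averaged 98.9 ± 10.2 in ER and 68.7 ± 10.7 in SH (SD, n = 6 each), with a log2 fold change of 0.53 ± 0.14 and, without the pair, 0.61 ± 0.15.

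Htr5a encodes the serotonin receptor 5A, which couples to inhibitory G proteins. It measured 192, 222, 220, 202, 228 and 217 in ER rats 1 to 6, against 131, 142, 36.5, 179, 144 and 172 in SH rats 1 to 6. ER rats were all above SH rats, and SH 3 was far below its group. Its log2 fold change was 0.82 ± 0.26 with all rats and 0.43 ± 0.11 without SH 1 and SH 3, and EE rats averaged 167 ± 13.6. Of 11 serotonin receptors measured, 8 were higher in ER in either fit. Htr5a, already chosen for its separation, alone reached an unadjusted p under 0.05 in both (4.57% and 2.66% of all genes were higher at that p).

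Other genes higher in every ER rat include Mtm1, a phosphoinositide phosphatase, at 1069.9 ± 44.3 in ER and 879 ± 135 in SH, or 951 ± 73.1 in SH without the pair. For Mtm1 the log2 fold change was 0.30 ± 0.09 with all rats and 0.17 ± 0.06 without the pair. Gpatch2 averaged 163 ± 18.5 in ER and 114 ± 35.2 in SH, with 0.59 ± 0.21, or 0.31 ± 0.13 without the pair, so that both were smaller by over 1.5 times without it. Oxct1, the mitochondrial enzyme that starts ketone body use, averaged 5475 ± 200 in ER and 5041 ± 163 in SH, with 0.12 ± 0.05, or 0.11 ± 0.05 without the pair.

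Genes lower in every ER rat included Aldh1l1 and Aldh1b1. Aldh1l1, the folate enzyme 10-formyltetrahydrofolate dehydrogenase and a standard astrocyte marker, measured 295, 280, 265, 301, 253 and 313 in ER rats 1 to 6, against 379, 394, 376, 391, 418 and 346 in SH rats 1 to 6. The groups stood apart by more than the spread within either, at 284 ± 22.6 in ER and 384 ± 24.0 in SH (SD, n = 6 each). The log2 fold change was -0.43 ± 0.10 by limma (adjusted p = 0.567) and -0.44 ± 0.11 without the pair (adjusted p = 0.649), and by DESeq2 the adjusted p was 0.0991. EE rats spread over both groups, at 353 ± 57.4. Aldh1b1, a mitochondrial aldehyde dehydrogenase, averaged 378 ± 8.94 in ER and 467 ± 35.0 in SH, a log2 fold change of -0.30 ± 0.09 and -0.25 ± 0.10 without the pair. Of 16 aldehyde dehydrogenases measured, 12 were lower in ER. At an unadjusted p under 0.05, 3 were lower and 1 higher (3.32% and 4.57% of all genes). Without the pair 11 were lower, with the same counts of 3 and 1 at that p (3.79% and 2.66% of all genes). The 3 include Aldh1l1 and Aldh1b1, which were already chosen for their separation.

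Smarcd3, the BAF60c subunit of SWI/SNF chromatin remodelling complexes, measured 1207, 1428, 1435, 1477, 1556 and 1576 in ER rats 1 to 6, against 1936, 1816, 2305, 1655, 1741 and 1673 in SH rats 1 to 6. SH 1 and SH 3 were its 2 highest rats, and the log2 fold change was -0.35 ± 0.09 with all rats and -0.26 ± 0.07 without them. EE lay at 1524 ± 129. Upf3b, a factor of nonsense-mediated RNA decay, had the same pattern, at 963 ± 25.1 in ER and 1248 ± 202 in SH, or 1129 ± 99.4 in SH without the pair. Its log2 fold change was -0.36 ± 0.09, against -0.23 ± 0.08 without the pair.

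Cfd, complement factor D of the alternative pathway, was low in all rats. It measured 13.7, 14.8, 4.47, 15.4, 13.4 and 10.5 in ER rats 1 to 6, against 20.8, 28.2, 22.6, 30.7, 16.5 and 40.1 in SH rats 1 to 6. The log2 fold change was -1.11 ± 0.32 and -1.22 ± 0.36 without the pair, and EE rats averaged 23.6 ± 9.08. Aqp9, a channel for water and glycerol, averaged 120 ± 13.5 in ER and 189 ± 41.5 in SH, with a log2 fold change of -0.63 ± 0.20 and -0.48 ± 0.20 without the pair. All 6 aquaporins measured were lower in ER with all rats and 5 of 6 without the pair, with 1 and 2 lower at an unadjusted p under 0.05 (3.32% and 3.79% of all genes). Aqp9, already chosen for its separation, is the 1 with all rats, and Aqp9 and Aqp4 are the 2 without the pair. With all rats Aqp4 was near 0, at -0.01 ± 0.11.

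Further genes lower in every ER rat include Gstz1 of tyrosine breakdown, at 667 ± 46.5 in ER and 835 ± 123 in SH, or 766 ± 31.2 in SH without the pair. For Gstz1 the log2 fold change was -0.31 ± 0.09 with all rats and, smaller by over 1.5 times, -0.20 ± 0.08 without the pair. Ier5l averaged 287 ± 13.4 in ER and 393 ± 40.4 in SH, with -0.45 ± 0.13, or -0.39 ± 0.14 without the pair. Fgd3, an exchange factor of Cdc42, averaged 461 ± 25.4 in ER and 550 ± 47.1 in SH, with -0.25 ± 0.08, or -0.24 ± 0.09 without the pair. Thrsp, a thyroid hormone target of fat synthesis, averaged 480 ± 57.2 in ER and 607 ± 60.6 in SH, with -0.34 ± 0.11, or -0.26 ± 0.11 without the pair. Nr2c1, an orphan nuclear receptor, averaged 456 ± 24.6 in ER and 523 ± 22.9 in SH, with -0.20 ± 0.07, or -0.19 ± 0.08 without the pair. In EE rats Ier5l averaged 265 ± 62.3 and Fgd3 437 ± 43.7, while Thrsp averaged 548 ± 91.9 and Nr2c1 512 ± 42.7.

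The widest fold changes belonged to genes of low level. Where both limma fits gave an unadjusted p under 0.05 and the mean level was 10 or more, Siah3 of the Siah ubiquitin ligase family had the highest, with 22.5 ± 5.09 in ER and 8.88 ± 8.37 in SH and a log2 fold change of 1.78 ± 0.54, or 0.92 ± 0.37 without the pair. Minar1 was next, with 18 ± 7.17 in ER and 5.97 ± 4.18 in SH and a log2 fold change of 1.70 ± 0.48, or 1.08 ± 0.36 without the pair. The low end held, after Ctxn3, genes such as Vax1, a homeobox gene of the ventral forebrain, with 8.08 ± 4.31 in ER and 21.8 ± 9.32 in SH (log2 fold change -1.37 ± 0.53, or -1.38 ± 0.60 without the pair). Ccdc173 averaged 14.4 ± 11.2 in ER and 31.1 ± 4.97 in SH, with -1.27 ± 0.33, or -1.36 ± 0.38 without the pair, and Ifit3, an interferon-induced gene, 11.3 ± 6.70 in ER and 23.0 ± 8.66 in SH, with -1.14 ± 0.41, or -1.26 ± 0.45 without the pair. In Ccdc173 a single rat, ER 3 at 36.9, accounted for the overlap, and the other ER rats lay at 7.72 to 13.3 below all SH rats.

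Most astrocyte markers had lower means in ER, with and without the pair, though none passed an adjusted p by limma. Of 30 markers measured, 26 had a negative log2 fold change with all rats and 28 without SH 1 and SH 3. The median was -0.14 with all rats and -0.13 without the pair, where the median over all genes tested was 0.01 and 0.00. At an unadjusted p under 0.05 were 8 of 30 lower in ER with all rats and 7 of 30 without the pair, against the backgrounds of 3.32% and 3.79% above, and 0 were higher in either. Only Aldh1l1, Agt and Ntsr2 were below that p in both fits. Ndrg2, Gjb6, Sox9, Mlc1 and Atp13a4 were so with all rats alone, and Slc1a2, Slc4a4, Fgfr3 and Aqp4 without the pair alone. Leaving out each rat in turn moved the median between -0.18 and -0.12, and without SH 2 and SH 6 it was -0.16. Mean log2 levels over the list, with each gene set to 0 over the 18 rats, ran from -0.186 to 0.059 in ER and from -0.138 to 0.200 in SH, so the groups overlapped at the level of the whole list.

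**Figure D2:**
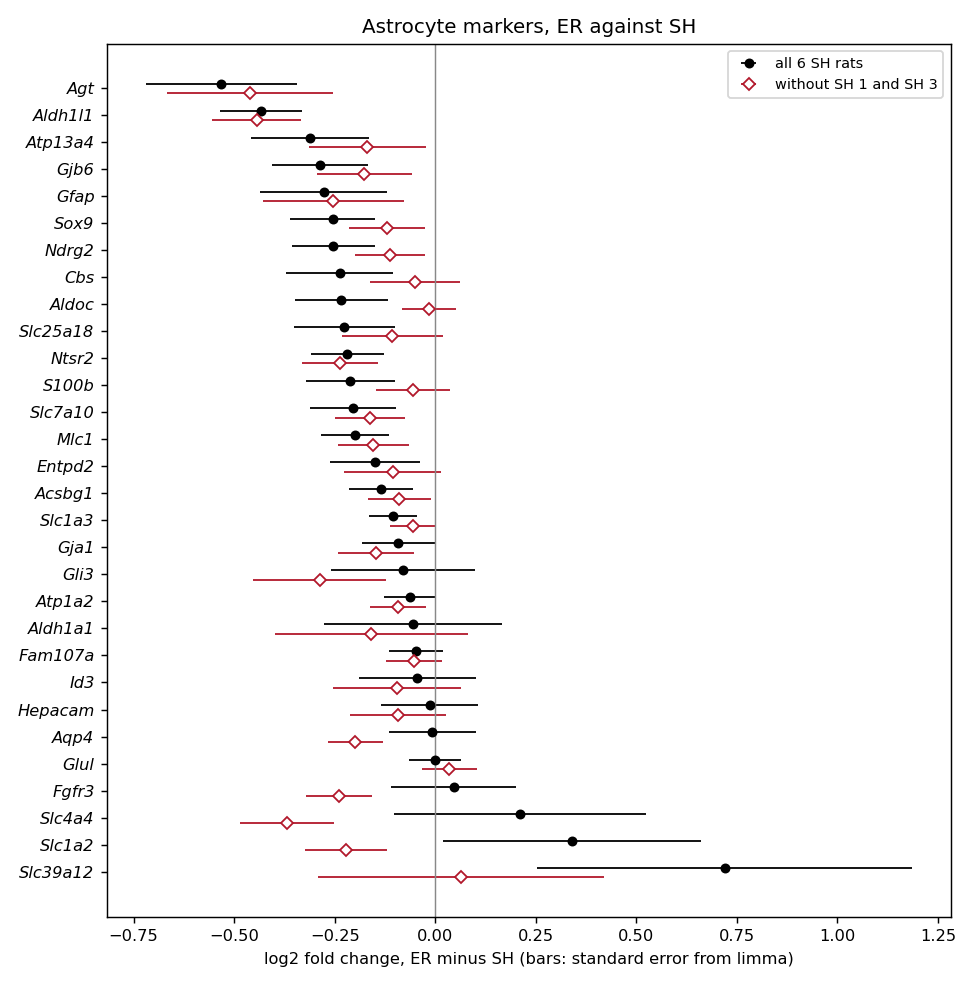
Log2 fold change, ER minus SH, of each of the 30 astrocyte markers (horizontal axis) with all 6 SH rats (black circles) and without SH 1 and SH 3 (open red diamonds). Bars are standard errors from limma. With all rats 26 markers lie left of 0 and without the pair 28. Fgfr3, Slc4a4 and Slc1a2 cross from right to left, and Glul crosses from just left of 0 to the right.

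The lowest fold change among the astrocyte markers was that of Agt, angiotensinogen, which brain astrocytes make. Its values were 2463, 2742, 1988, 2286, 1476 and 2179 in ER rats 1 to 6, against 3480, 3942, 3398, 2511, 3161 and 2449 in SH rats 1 to 6. The groups overlapped through SH 4 and SH 6, and the log2 fold change was -0.53 ± 0.19, or -0.46 ± 0.21 without the pair. Ntsr2, an astrocytic neurotensin receptor, averaged 1235 ± 117 in ER and 1439 ± 141 in SH, a log2 fold change of -0.22 ± 0.09, or -0.24 ± 0.09 without the pair. Ndrg2, an abundant astrocyte protein, averaged 20440 ± 1058 in ER and 24683 ± 4616 in SH, a log2 fold change of -0.25 ± 0.10 that was -0.11 ± 0.09 without the pair. Gfap of the astrocyte cytoskeleton did not separate, at 4444 ± 1351 in ER and 5201 ± 446 in SH with the wider spread in ER (log2 fold change -0.28 ± 0.16, or -0.25 ± 0.18 without the pair).

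Other markers depended on the pair. Slc1a2, the main glutamate transporter of astrocytes, measured 2613, 2708, 2131, 2209, 2114 and 1870.3 in ER rats 1 to 6, against 1572, 2234, 426, 2666, 2838 and 2835 in SH rats 1 to 6. SH 1 and SH 3 were the 2 lowest of the SH rats, and the log2 fold change was 0.34 ± 0.32 with all rats and -0.22 ± 0.10 without them. Aqp4, the water channel of astrocyte endfeet, likewise gave -0.01 ± 0.11 with all rats and -0.20 ± 0.07 without the pair, at 8302 ± 712 in ER and 9505 ± 403 in the other 4 SH rats. Slc1a3, the other astrocyte glutamate transporter, gave -0.11 ± 0.06 and -0.05 ± 0.06 without the pair.

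Most markers of cells at the borders of the BLA also had lower means in ER. Of 10 markers of intercalated cells, 7 had a negative log2 fold change with all rats and 9 without the pair, with medians of -0.25 and -0.48. At an unadjusted p under 0.05, 0 were higher and 1 lower with all rats (4.57% and 3.32% of all genes). Without the pair 0 were higher and 5 lower at that p (2.66% and 3.79%). Foxp2, a transcription factor of intercalated cells, measured 235, 511, 241, 261, 142 and 291 in ER rats 1 to 6, against 243, 1417, 383, 340, 519 and 1048 in SH rats 1 to 6. SH 2 and SH 6 stood high, and the log2 fold change was -1.04 ± 0.37 with all rats and -1.45 ± 0.35 without SH 1 and SH 3. Eya2, a developmental coactivator, was high in the same 2 rats at 238 and 246, against 16.5 to 67.8 over the 6 ER rats and 24.8 to 126 over the other 4 SH rats. Meis2, a homeobox gene of this lineage, measured 2802 and 2162 in SH 2 and SH 6, against 354 to 1418 over ER and 503 to 1259 over the other SH rats. Pax6, which also marks intercalated cells, averaged 131 ± 19.7 in ER and 193 ± 84.6 in SH, with -0.45 ± 0.25, or -0.77 ± 0.22 without the pair.

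Of 22 markers of striatal and central amygdala neurons, 17 had a negative log2 fold change with all rats and 15 without the pair, with medians of -0.19 and -0.23 and 4 and 6 markers at an unadjusted p under 0.05, all lower (3.32% and 3.79% of all genes). Pdyn, the dynorphin precursor, averaged 172 ± 78.9 in ER and 322 ± 152 in SH, with a log2 fold change of -0.88 ± 0.33, or -1.11 ± 0.34 without the pair. Rgs9, a striatal regulator of G protein signalling, averaged 144 ± 55.1 in ER and 255 ± 117 in SH, with -0.78 ± 0.29, or -0.98 ± 0.31 without the pair. Drd1, a dopamine receptor, gave -0.10 ± 0.17, or -0.32 ± 0.15 without the pair. Again SH 2 and SH 6 were the highest SH rats for all 3, with Drd1 at 831 and 1018. When SH 2 and SH 6 were left out in place of SH 1 and SH 3, the median of the intercalated list was 0.02, that of the striatal list -0.07, Foxp2 gave -0.46 ± 0.29 and Eya2 gave -0.40 ± 0.43. The share of these cells in each punch was not tested. Of 17 hypothalamic and thalamic markers, 13 were negative in either fit, with medians of -0.19 and -0.22, and all 6 red blood cell markers were negative in either fit, with 0 at an unadjusted p under 0.05.

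**Figure D3:**
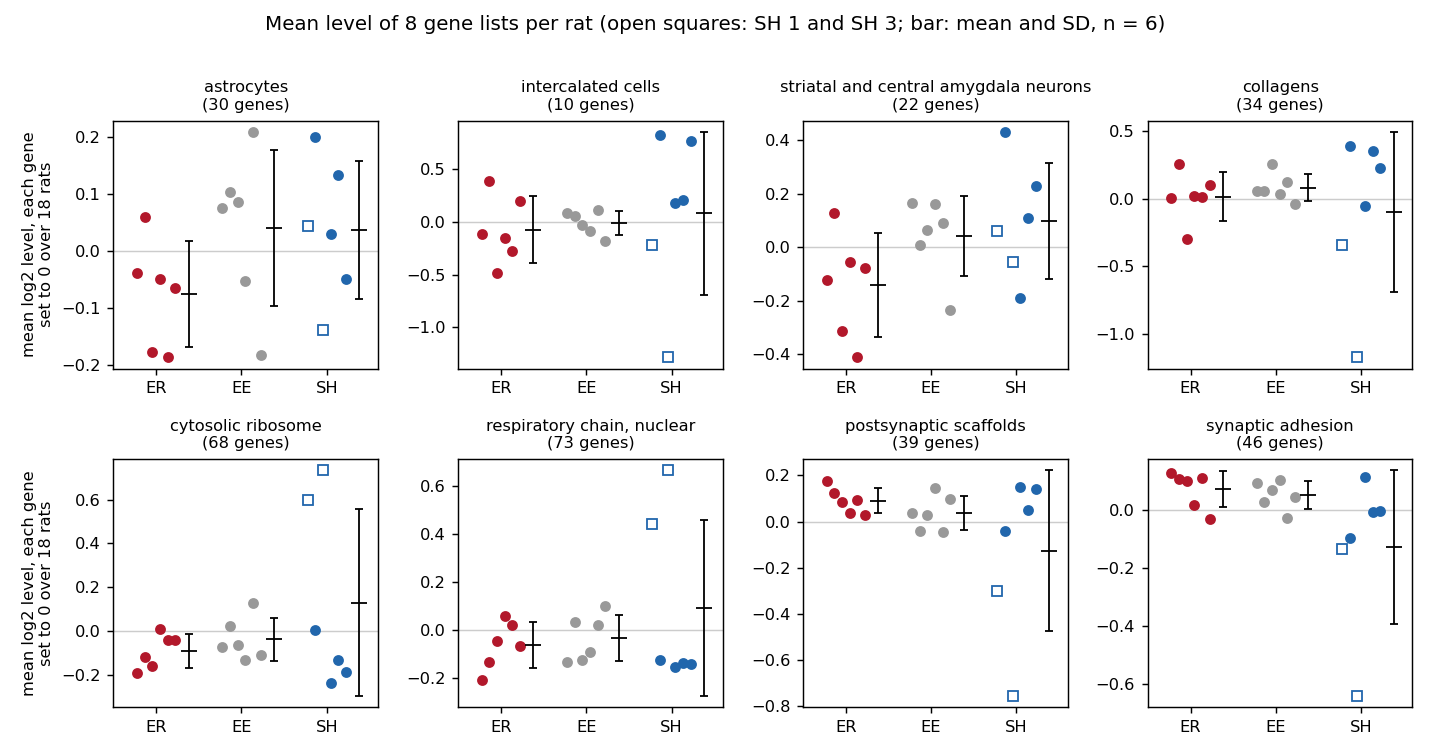
Mean log2 level of 8 gene lists in each rat, each gene first set to 0 over the 18 rats, with ER, EE and SH on the horizontal axes. Filled circles are rats, open squares are SH 1 and SH 3, and the bar is the mean with SD of 6 rats. SH 2 and SH 6 are the highest rats for intercalated cells, SH 1 and SH 3 are the highest for the cytosolic ribosome and the respiratory chain, and SH 3 is the lowest for collagens, postsynaptic scaffolds and synaptic adhesion.

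Among neurons of the BLA itself, excitatory markers leaned higher in ER, with 17 of 25 positive (median 0.14) and 18 of 25 without the pair (median 0.10), with 1 higher and 2 lower at an unadjusted p under 0.05 with all rats (4.57% and 3.32% of all genes) and 0 higher and 2 lower without the pair (2.66% and 3.79%). Slc17a7 averaged 46975 ± 2249 in ER and 42776 ± 4722 in SH, a log2 fold change of 0.14 ± 0.09, or 0.18 ± 0.09 without the pair. The 2 lower markers were Lypd1, which binds nicotinic receptors (1242 ± 359 in ER, 1826 ± 442 in SH), and Otof, a calcium sensor of vesicle release (1008 ± 429 in ER, 1422 ± 330 in SH). Their log2 fold changes without the pair were -0.62 for Lypd1 and -0.60 for Otof, against -0.57 and -0.56 with all rats. Inhibitory markers were divided, with 15 of 25 positive and a median of 0.03, and 13 of 25 and 0.02 without the pair. At an unadjusted p under 0.05, 1 was higher and 2 lower with all rats (4.57% and 3.32% of all genes). Without the pair 2 were higher and 3 lower at that p (2.66% and 3.79%). The 2 described next were lower and do not stand for the list. Slc32a1, the vesicular GABA transporter shared by all GABAergic neurons, measured 2076, 2196, 2160, 1989, 1980.5 and 1957 in ER rats 1 to 6, against 2538, 2428, 2476, 2140, 2361 and 2440 in SH rats 1 to 6. Only SH 4 fell within the ER range, and the log2 fold change was -0.22 ± 0.07, or -0.18 ± 0.07 without the pair. Lamp5, which marks a class of interneurons, averaged 1470 ± 137 in ER and 1736 ± 180 in SH, a log2 fold change of -0.24 ± 0.08, or -0.19 ± 0.08 without the pair.

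Microglial markers leaned lower, with 22 of 29 negative and a median of -0.11, and 20 of 29 and -0.04 without the pair. At an unadjusted p under 0.05 were 3 of 29 lower with all rats and 1 of 29 without the pair (3.32% and 3.79% of all genes), and leaving out each rat in turn moved the median between -0.17 and -0.02. Olfml3, a microglial secreted protein, averaged 43.6 ± 13.1 in ER and 74.8 ± 26.3 in SH with a log2 fold change of -0.74 ± 0.28, or -0.71 ± 0.30 without the pair. C1qa, the A chain of complement C1q, averaged 1049 ± 173 in ER and 1365 ± 394 in SH, and SH 1 and SH 3 were its highest rats at 1817 and 1900.1. Its log2 fold change was -0.35 ± 0.16 with all rats and -0.10 ± 0.13 without the pair. The 36 microglial and matrix genes of the study's own table, to which the study turned after other analyses of the same samples, so that they are no independent evidence of a direction, had 21 negative values and a median of -0.10, with 1 gene higher and 1 lower at an unadjusted p under 0.05 (4.57% and 3.32% of all genes). Without the pair 23 of the 36 were negative, with a median of -0.14 and 0 higher and 2 lower at that p (2.66% and 3.79%). Myelinating oligodendrocyte markers were even, with 13 of 25 positive with all rats, 12 of 25 without the pair, and medians of 0.00 in both.

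Matrix genes depended on the pair. Of 34 collagens, 21 were positive with all rats (median 0.11) and 25 negative without SH 1 and SH 3 (median -0.22), where 12 of 34 were lower at an unadjusted p under 0.05 (3.79% of all genes), against 1 of 34 with all rats (3.32%). SH 1 and SH 3 had the lowest list levels of all rats, and SH 3 reached -1.17. Genes of integrins, laminins and basement membranes turned in the same way, with medians of 0.08 and -0.11. Within the family of type IV collagens, 5 of 6 were higher in ER with all rats and 4 of 6 lower without the pair. Col15a1, a basement membrane collagen of vessels, did not turn, with 18.6 ± 11.7 in ER and 29.7 ± 6.64 in SH and log2 fold changes of -0.88 ± 0.37 and -0.996 ± 0.418 without the pair.

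Of 25 genes of perineuronal nets and lecticans, 14 were negative with all rats and 21 without the pair, with 1 higher and 0 lower at an unadjusted p under 0.05 with all rats (4.57% and 3.32% of all genes) and 0 higher and 2 lower without the pair (2.66% and 3.79%). With all rats 2 of the 25, Bcan and Hapln3, were lower without overlap between the groups (0.176% of all genes). Neither of them reached an unadjusted p under 0.05 by limma in either fit. Bcan encodes brevican, a brain lectican of these nets. It measured 4098, 4268, 4148, 4161, 4222 and 4132 in ER rats 1 to 6, against 4303, 4661, 4433, 4351, 4549 and 4296 in SH rats 1 to 6. The separation was complete but narrow, with a log2 fold change of -0.09 ± 0.05 (adjusted p = 0.578 by limma) and -0.10 ± 0.06 without the pair. Hapln3, a link protein that ties lecticans to hyaluronan, averaged 47.8 ± 6.77 in ER and 64.1 ± 7.71 in SH, a log2 fold change of -0.42 ± 0.21, or -0.45 ± 0.24 without the pair. Its groups barely separated, with the highest ER rat at 56.675 and the lowest SH rat at 56.747. Sparc, a matrix protein of astrocytes and vessels, averaged 12692 ± 1310 in ER and 15473 ± 1970 in SH, with -0.28 ± 0.11, or -0.22 ± 0.12 without the pair, and Itga5, the fibronectin receptor subunit, 29.4 ± 6.28 in ER and 47.0 ± 15.7 in SH, with -0.62 ± 0.23, or -0.54 ± 0.24 without the pair.

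Most genes of the synaptic lists had positive fold changes with all rats, and the medians were nearer 0 without the pair. Genes of postsynaptic scaffolds had 34 of 39 positive (median 0.20, 9 higher at an unadjusted p under 0.05, against 4.57% of all genes), and 20 of 39 without SH 1 and SH 3 (median 0.01, 0 higher at that p, against 2.66%). Calcium, sodium and HCN channels had a median of 0.16, against 0.03 without the pair, and potassium channels 0.13 against 0.02. Higher medians without the pair belonged to synaptic adhesion, with 41 of 46 positive (median 0.18) and 35 of 46 without the pair (median 0.08), and kinase signalling, with 44 of 56 positive (median 0.19) and 43 of 56 without the pair (median 0.06). With SH 2 and SH 6 left out the same 2 lists had medians of 0.22 and 0.22.

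Single synaptic genes with an unadjusted p under 0.05 in both fits included Cadps2. Cadps2, which primes dense-core vesicles for release, measured 3706, 3385, 3852, 3607, 3693 and 3226 in ER rats 1 to 6, against 3246, 2993, 2970.5, 3463, 3068 and 2954 in SH rats 1 to 6, and its log2 fold change was 0.20 ± 0.06 in either fit. Map2k6, the kinase above p38, measured 613, 563, 707, 668, 672 and 719 in ER rats 1 to 6, against 628, 496, 520.2, 583, 528 and 511 in SH rats 1 to 6. Only SH 1 and SH 4 reached into the range of ER, and the log2 fold change was 0.27 ± 0.08, or 0.31 ± 0.08 without the pair. EE rats averaged 673 ± 56.3 for Map2k6. Sstr1, a somatostatin receptor, averaged 1446 ± 143 in ER and 1208 ± 71.3 in SH, with 0.25 ± 0.10, or 0.23 ± 0.10 without the pair. Cadm1, an adhesion molecule of synapses, gave 0.37 ± 0.13, or 0.20 ± 0.09 without the pair, and Ppp3cb, a catalytic subunit of calcineurin, 0.28 ± 0.10, or 0.15 ± 0.07. Of 27 GABA and glycine receptor genes 18 were positive with all rats (median 0.15) and 15 without the pair (median 0.02). At an unadjusted p under 0.05, 6 were higher and 1 lower with all rats (4.57% and 3.32% of all genes). Without the pair 1 was higher and 1 lower at that p (2.66% and 3.79%). Gabbr2, a subunit of the GABA-B receptor, gave 0.30 ± 0.10, or 0.17 ± 0.09 without the pair. The 1 lower gene in either fit was Gabre. Gabre, the epsilon subunit of the GABA-A receptor, measured 18.7 ± 8.86 in ER and 38.6 ± 19.9 in SH (log2 fold change -0.97 ± 0.32, or -1.34 ± 0.32 without the pair).

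**Figure D4:**
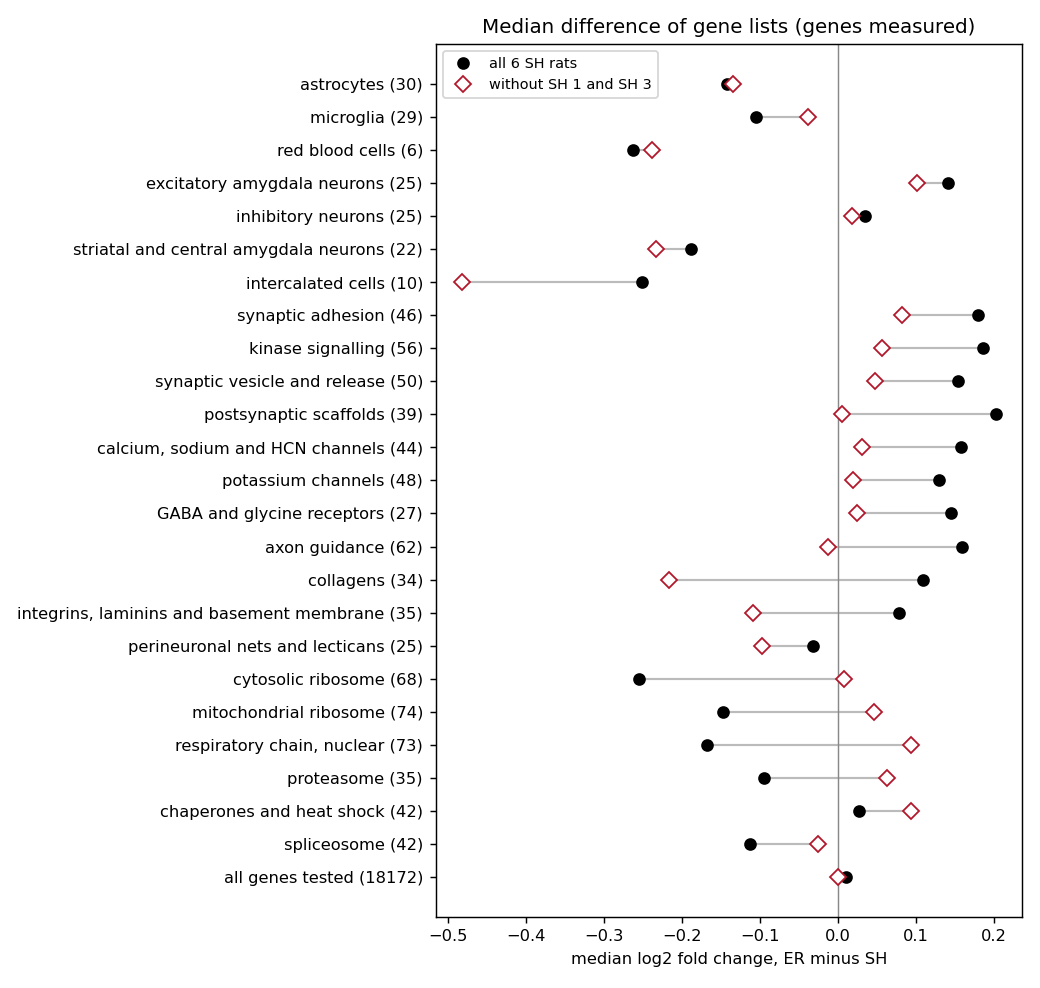
Median log2 fold change, ER minus SH, of 24 gene lists and of all genes tested (horizontal axis), with the number of genes in brackets. Black circles use all 6 SH rats and open red diamonds leave out SH 1 and SH 3, and the grey line joins the 2 values of a list. The median of astrocytes stays near -0.14, while ribosomal, respiratory chain, proteasome and collagen lists cross 0.

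Genes of protein synthesis and energy turned with the pair. Of 68 cytosolic ribosomal proteins, 65 were negative with all rats (median -0.25, 13 lower at an unadjusted p under 0.05, against 3.32% of all genes), and 29 without SH 1 and SH 3 (median 0.01, 2 higher at that p, against 2.66%). Of 73 nuclear genes of the respiratory chain, 68 were negative with all rats (median -0.17). At an unadjusted p under 0.05, 2 were higher and 0 lower (4.57% and 3.32% of all genes). Without the pair 69 were positive (median 0.09), 13 of them at that p (2.66% of all genes). The other 4 SH rats lay close together at -0.153 to -0.123 for this list, within the range of ER at -0.205 to 0.058. Mitochondrial ribosomal proteins gave medians of -0.15 and 0.05, and the proteasome -0.10 and 0.06. The fold change also moved with genomic span, known from RefSeq for 14898 genes (82.0% of those tested). The 3726 genes of shortest span had a median log2 fold change of -0.08 with all rats and 0.01 without the pair, and the 3725 of longest span 0.11 with all rats and 0.00 without the pair.

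Single genes of these lists kept their direction in both fits. Uqcrc2, a core subunit of respiratory complex III, was among the 5 respiratory chain genes positive with all rats. It averaged 4550 ± 203 in ER and 4078 ± 241 in SH, a log2 fold change of 0.16 ± 0.05, or 0.14 ± 0.05 without the pair. Snrnp70, the U1 snRNP protein that marks the 5' splice site, averaged 7164 ± 238 in ER and 8401 ± 932 in SH, with -0.22 ± 0.06, or -0.22 ± 0.07 without the pair, and EE rats averaged 7289 ± 286. Srsf2, a splicing factor of the SR family, gave -0.18 ± 0.07, or -0.13 ± 0.06 without the pair. Of 42 spliceosome genes, 31 were negative with all rats (6 lower at an unadjusted p under 0.05, against 3.32% of all genes) and 23 without the pair (4 lower, against 3.79%). Chaperones leaned the other way, with 25 of 42 positive (median 0.03, 4 higher at an unadjusted p under 0.05, against 4.57% of all genes) and 36 of 42 without the pair (median 0.09, 10 higher and 1 lower at that p, against 2.66% and 3.79%). Dnaja1, a cochaperone of Hsp70, averaged 6798 ± 293 in ER and 6154 ± 411 in SH, with 0.15 ± 0.05, or 0.14 ± 0.06 without the pair, and Canx, calnexin of the endoplasmic reticulum, was above SH in every ER rat, at 17509 ± 395 in ER and 16012 ± 690 in SH, with 0.13 ± 0.05, or 0.09 ± 0.05 without the pair.

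Genes that respond to stress and activity gave no common direction. Of 25 glucocorticoid targets, 18 were negative in either fit, with medians of -0.08 and -0.05. At an unadjusted p under 0.05, 0 were higher and 1 lower with all rats (4.57% and 3.32% of all genes). Without the pair 0 were higher and 2 lower at that p (2.66% and 3.79%). Ddit4, a target that restrains mTOR, averaged 821 ± 47.7 in ER and 951 ± 65.4 in SH, a log2 fold change of -0.21 ± 0.08, or -0.27 ± 0.08 without the pair, when no ER rat overlapped the other 4 SH rats (0.858% of all genes were so separated and lower). Immediate early genes had 17 of 32 positive with all rats and 15 without the pair. At an unadjusted p under 0.05, 3 were higher and 2 lower with all rats, and 0 higher and 1 lower without the pair, against the same shares of all genes. Npas4, an activity-dependent transcription factor, varied among rats, at 108 ± 72.5 in ER and 54.4 ± 28.7 in SH (0.92 ± 0.42, or 0.65 ± 0.43 without the pair), and Jund, an AP-1 subunit, averaged 2932 ± 236 in ER and 3430.1 ± 428 in SH (-0.22 ± 0.09, or -0.12 ± 0.08 without the pair). None of these genes passed an adjusted p by limma.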

How the data were processed

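RNA from BLA micropunches of 18 rats was sequenced by the authors as 50-base single reads from a directional polyadenylated RNA kit. The submitters' processing notes name HISAT2 and DESeq2, and the deposited signal values are reads per gene divided by 1 DESeq2 size factor for each library, not corrected for length. For the tools' versions, the genome build, the annotation and the use of strand in counting, the sources used here give nothing, and reads of overlapping or antisense genes and of close paralogs may be shared. All columns were mapped to a sample (0 were not used).

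Genes with a mean above 1 were kept (18172 of 19113, 16268 of them protein-coding). Log2(value + 1) was fitted with limma 3.58.1 in R 4.3.3, with trended empirical Bayes moderation, in 1 model of the 3 groups, and p-values were adjusted by Benjamini-Hochberg over all genes tested at a threshold of 0.05. Fold changes are on that scale and understate those of low genes. Whole reads were recovered by dividing by the value of 1 read (values up to 1000 reads, tolerance 0.01 reads, 100.0% of values whole in each library), and tested with edgeR 4.0.16, DESeq2 1.42.0 and limma-voom as alternatives. The step of EE 3 lies too near 1 to be sure of, so DESeq2 was also run without it. Scripts were tested on simulated data.

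Named genes were those called by limma with or without SH 1 and SH 3, or by edgeR or DESeq2 with all rats, those without overlap between groups and with the smallest p, the widest fold changes at a mean of at least 10, up to 4 members of each list by p, and cell type markers. The members and lists were chosen with earlier results of these data known. Of the listed names 1938 matched by symbol and 14 by a RefSeq synonym, 84 were not found and 23 were not tested. The file turned 24 gene names into a time of day, and these were tested but not named. Alternatives were scaling, filter, pseudocount, model, protein-coding genes alone, a replicate block and leaving out libraries. The fits without SH 2 and SH 6, without EE 3, and of count models without SH 1 and SH 3 were chosen after seeing the data.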

Additional observations from a re-analysis of the deposited data

Results flagged for a closer look

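In 7 of 162 groups of 6 rats checked, 1 rat lay so far from the nearest other that the gap, as a share of the range of its group, passed Dixon's critical value, which chance gives in about 1 of 20 groups. Ctxn3 was 238 in SH 2, with the nearest SH rat at 98.0. Low in SH 3 were Htr5a at 36.5 (nearest 131) and Gpatch2 at 45.1 (nearest 115). Oxct1 was high in 1 rat of each group, at 5881 in ER 4 (nearest 5421) and 5348 in SH 4 (nearest 5052). Ccdc173 was 36.9 in ER 3 (nearest 13.3), and Pdyn was 324 in ER 2 (nearest 176).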

How the results depend on the processing

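Limma called 0 genes in every limma setting run, and edgeR and limma-voom called 0, while DESeq2 called 2 with all rats, 3 without SH 1 and SH 3, 4 without SH 2 and SH 6 (Aurkc, Jade3 and Wdr74, of which the last 2 are named after their values were seen, and 1 gene without a gene name) and 0 without EE 3. Genes at an unadjusted p under 0.05 and higher in ER numbered 830 by limma, against 484 without SH 1 and SH 3, 538 by edgeR, 547 by limma-voom, 528 by DESeq2 without EE 3, 444 by edgeR and 469 by DESeq2 without SH 1 and SH 3, and 1808 by limma without SH 2 and SH 6. Those lower in ER numbered 604 by limma, against 935 by DESeq2, 985 by limma-voom without SH 1 and SH 3, and 1054 by limma and 1574 by DESeq2 without SH 2 and SH 6. By limma on the 12 ER and SH libraries alone, 563 were higher and 475 lower at that p. Leaving out each rat in turn gave 464 to 1484 higher and 455 to 960 lower, and moved the first by over 1.5 times for ER 3 (548), ER 5 (550), SH 1 (545), SH 3 (464), SH 4 (1484) and SH 6 (1468), and the second for SH 4 (960). Genes without overlap numbered 114 higher and 156 lower without SH 1 and SH 3, 120 and 103 without SH 2 and SH 6, and 31 to 106 and 37 to 88 with 1 rat left out, where fewer rats have to be apart. Col4a5 had a log2 fold change of 0.14 without SH 2 and SH 6, and -0.24 to 0.048 with 1 rat left out. Aqp4 gave 0.087 by limma and 0.055 by DESeq2 without SH 2 and SH 6, and -0.098 to 0.041 with 1 rat left out. Slc1a2 gave -0.22 by limma, edgeR and DESeq2 and -0.24 by limma-voom without SH 1 and SH 3, -0.15 by limma-voom with all rats, and -0.073 to 0.47 with 1 rat left out. Drd1 gave 0.14 by limma and 0.13 by DESeq2 without SH 2 and SH 6, and -0.23 to 0.025 with 1 rat left out. The cause of these changes was not tested. With the replicate number as a replicate block, limma called 0 genes, with 785 higher and 519 lower at an unadjusted p under 0.05. Same-numbered ER and SH rats deviated together with correlations of -0.03 to 0.13, 1 of 6 over 0.1, and 2 of 6 ER rats correlated best with their own number, so the numbers were not taken to pair the rats.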
